A study of Drosophila melanogaster with 2 samples.

Results

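The genes examined here encode 10 insulator and architectural proteins of Drosophila melanogaster: Chro, Dref, pzg, BEAF-32, Cp190, su(Hw), mod(mdg4), CTCF, Ibf1 and Ibf2. They were listed by gene name, with earlier results of these data known, and are 10 of 13968 annotated protein coding genes. What was measured is the binding of another protein to these genes. The embryos came from a transgenic line that stably expresses fu2 with GFP at its C-terminus. The insertion targets prg, a zinc finger gene of which fu2 is a synonym, and chromatin sheared by sonication to 200 to 800 bp was precipitated through the GFP tag. Whole embryos of mixed sex, 0 to 24 h old, gave 2 biological replicates of 1 group, numbered 2 and 3. All embryos carried the tagged protein, no control group was analysed here, and a whole embryo mixes many cell types whose binding cannot be told apart.

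Insulator proteins bind DNA and limit which enhancers reach which promoters. Architectural proteins help to set the borders of chromosome domains. In flies several DNA-binding insulator proteins recruit the shared cofactor Cp190. DREF and BEAF-32 recognise overlapping sequences, the DNA replication-related element and its CGATA core, which are common at promoters of housekeeping genes. Chromator and putzig, the proteins of Chro and pzg, are found with them in the interbands of polytene chromosomes.

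The deposited lists on dm6 held 30000 regions each for replicate 2, for replicate 3 and for the call on their combined alignments, here named the pooled list. The 3033 regions that passed the authors' irreproducible discovery rate (IDR) step, here named IDR peaks, were the 3033 pooled regions with the highest signal value. That value is the authors' own measure of enrichment per region, and ranks count from 1 at the highest value of a list. Lists called separately share no scale, so the replicates were compared by rank. No list gives read counts, so depth is unknown. The authors named that list as input to the IDR step with background included, so a region outside the IDR peaks need not be a bound site. Promoter summits were those no farther than 500 bp from the annotated start of a transcript. Distances from a start are negative upstream of it and positive downstream.

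The stretches below hold or lie beside summits of regions at these genes, except the Ibf2 line, whose word lies 73 bp from the summit. The Chro and Ibf2 lines were placed by the word they hold, and the Cp190 stretch was extended to take in its full word. They come from the NCBI Release 6 genome (dm6) and are written 5′ to 3′ on the strand of the gene named first, or on the plus strand for the internal mod(mdg4) peak. Capitals mark TATCGATA, the full DREF element, and CGATA, its core and the core of the BEAF-32 element, on either strand (TATCG where the core runs the other way). The core is contained in the full word, so each full word also counts as a core in both directions. The Dref stretch spans from the Dref start to the RpL13 start (chr2L:9967230-9967312, minus strand). The pzg stretch lies between the CG12974 and pzg starts (chr3L:21285963-21286098, plus strand). The Cp190 stretch lies between the starts of Cp190 and CG4338 (chr3R:15275238-15275521, minus strand) and ends in a full word that spans the Cp190 start. The Chro line holds the 30 bases around its summit, inside the 5′ UTR (chr3L:22878880-22878909, minus strand). The fifth and sixth lines hold the 108 bases before the mod(mdg4) start (chr3R:21377402-21377509, minus strand) and the 120 bases between 2 divergent starts beside the internal mod(mdg4) peak (chr3R:21365489-21365608). The last line holds 30 bases at the Ibf2 start (chr3R:9258501-9258530, minus strand).
Dref to RpL13: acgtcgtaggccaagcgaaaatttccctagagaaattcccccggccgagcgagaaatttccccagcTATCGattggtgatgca
pzg to CG12974: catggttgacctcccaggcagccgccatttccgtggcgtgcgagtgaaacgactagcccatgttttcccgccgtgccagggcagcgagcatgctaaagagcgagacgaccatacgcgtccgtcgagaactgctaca
Cp190 to CG4338: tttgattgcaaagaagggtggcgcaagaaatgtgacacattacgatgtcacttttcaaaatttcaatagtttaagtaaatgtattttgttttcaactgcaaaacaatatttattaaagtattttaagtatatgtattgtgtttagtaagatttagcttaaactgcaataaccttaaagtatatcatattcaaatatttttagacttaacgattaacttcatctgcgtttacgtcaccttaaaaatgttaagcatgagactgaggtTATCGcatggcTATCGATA
Chro summit: gttagtttaaagcTATCGacaggcaataca
mod(mdg4) start: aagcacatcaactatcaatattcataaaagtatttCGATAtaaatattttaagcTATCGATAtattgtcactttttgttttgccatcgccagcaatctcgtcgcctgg
mod(mdg4) internal peak: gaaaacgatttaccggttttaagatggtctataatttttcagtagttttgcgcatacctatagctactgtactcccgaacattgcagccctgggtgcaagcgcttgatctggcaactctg
Ibf2 start: tCGATAgaattcgatggcatgtTATCGATA

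Of the 10 genes, 5 had an IDR summit within 500 bp of a start: Chro, Dref, Cp190, pzg and BEAF-32. This share (exact Clopper-Pearson 95% interval 18.7% to 81.3%, counting over genes only) stood beside 17.5% of all protein coding genes. The other 5 genes, CTCF, Ibf2, su(Hw), mod(mdg4) and Ibf1, had a promoter region in the pooled list that was not an IDR peak. All 10 genes therefore had some listed promoter region, beside 55.7% of protein coding genes. All 3 lists end at exactly 30000 regions, and no source used here says if they were cut there, so a gene with no listed region may have one below the last listed rank. The genes were not drawn at random and are not replicates of a condition, so these shares are descriptions and no test was made.

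The IDR peaks are by construction the strongest pooled regions, so the following ranks describe how far each gene lay from that limit. The strongest promoter regions of the 5 genes with an IDR promoter summit ranked between 10 and 1161 in the pooled list, and those of the other 5 between 4760 and 16771. None of the 10 genes lay between ranks 1161 and 4760. The median rank over the 10 genes was 2960.5 and the median signal value 79.5, beside 5889.5 and 39.4 over the 7784 protein coding genes with a promoter region. An IDR peak had a signal value of at least 62.5. Counting the strongest 3033 regions of replicate 2 alone, 6 of the 10 genes had a promoter summit, the sixth being CTCF, beside 17.3% of protein coding genes. In replicate 3 alone the count was 5, beside 17.2%.

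**Figure D1:**
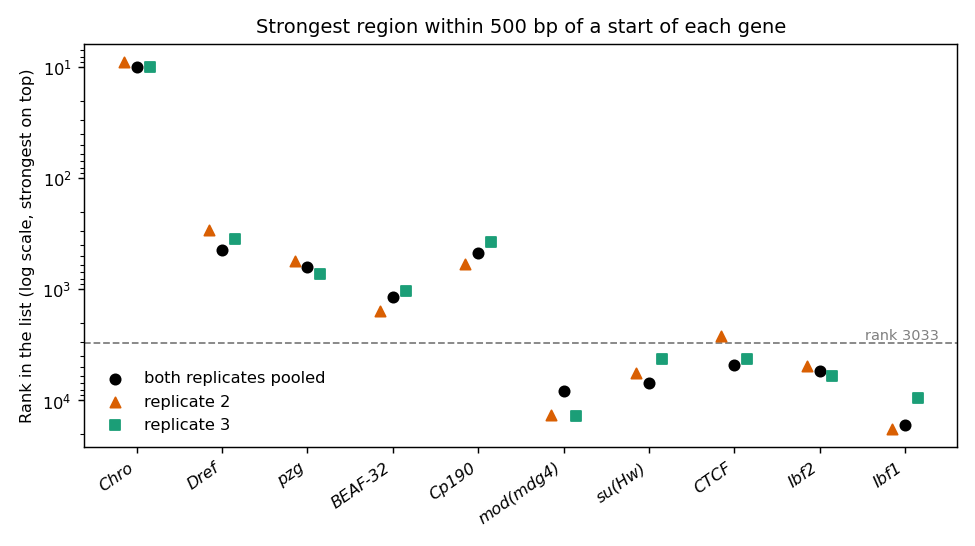
Rank of the strongest region within 500 bp of a start (vertical axis, log scale, rank 1 at the top) for each of the 10 genes in the pooled list, replicate 2 and replicate 3. The dashed line marks rank 3033, the number of IDR peaks, and the symbols of Chro, Dref, Cp190, pzg and BEAF-32 sit above it in all 3 lists, while CTCF crosses it in replicate 2 only.

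**Figure D2:**
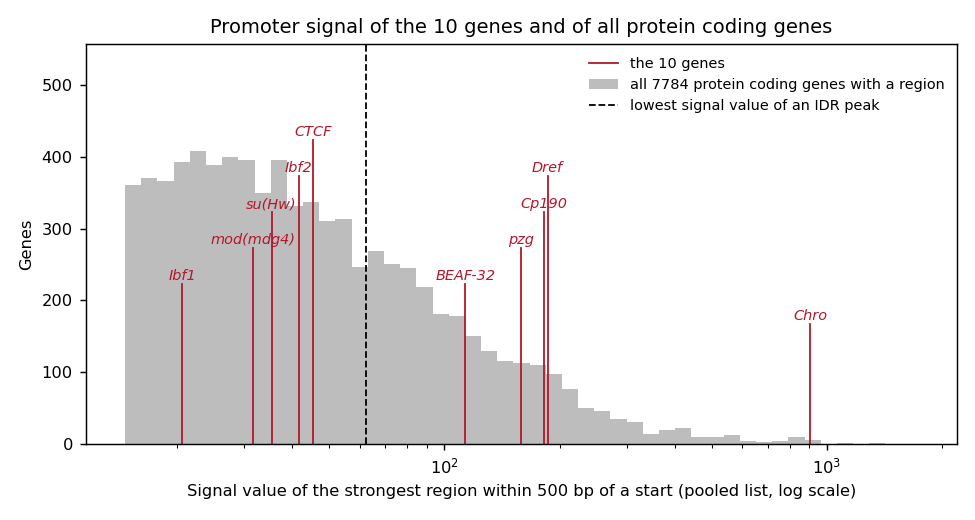
Signal value of the strongest promoter region in the pooled list (horizontal axis, log scale) for the 10 genes, each a labelled red line of arbitrary height, and for all 7784 protein coding genes with such a region (grey histogram, number of genes). Chro lies in the far right tail at 904.7, 4 genes lie between 113.5 and 186.1, and the other 5 lie left of the dashed line, which marks the lowest signal value of an IDR peak.

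The largest value belonged to Chro, which encodes the chromodomain protein Chromator. Its promoter region (3L, 22878700 to 22879100, dm6) ranked 10 in the pooled list with a signal value of 904.7. In replicate 2 the region ranked 9 with a signal value of 357.9, and in replicate 3 it ranked 10 with 544.7. The replicates thus placed it at nearly the same rank, and their summits lay 2 bp apart. The pooled summit was 82 bp downstream of the nearest of 3 annotated Chro starts, in the 5′ UTR, and 6 bp from the CGATA core printed above. Ranking genes by their strongest promoter region put Chro seventh, in the top 0.0501% of protein coding genes. The pooled summit also lay 187 bp from the start of Ssl1, another protein coding gene, so the region counts for both. The regions ranked directly above and below it were nearest to the starts of PNPase (913.7) and px (883.8). The next strongest of the 5 pooled regions at Chro was 30.6 times weaker in signal value.

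Dref, which encodes the DNA-binding factor DREF, had a promoter region on 2L (9967067 to 9967470). It ranked 440 in the pooled list with a signal value of 186.1. Its rank was 289 in replicate 2, with a signal value of 84.0, and 348 in replicate 3, with 129.9. Both replicates therefore held it far inside their strongest 3033 regions. The pooled summit lay 40 bp upstream of the start, within the 83 bases printed above that separate Dref from RpL13, a gene of the large ribosomal subunit. The replicate summits were 87 bp apart, on either side of the Dref start.

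pzg, which encodes the zinc finger protein putzig, had its promoter region at 3L 21285753 to 21286156. Its signal value was 158.5, at rank 633 of the pooled list. The rank was 549 in replicate 2 (signal value 63.8) and 729 in replicate 3 (signal value 93.7). Summits of the replicates lay 6 bp apart. The pooled summit was 144 bp upstream of pzg and 7 bp inside CG12974, the divergent neighbour, so it sat beside the neighbour's start more closely than beside that of pzg.

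BEAF-32, the gene of the boundary element-associated factor, had 2 IDR promoter peaks. The stronger lay 31 bp upstream of its start on 2R (14770334 to 14770469) with a signal value of 113.5 at rank 1161. Its rank was 1549 in replicate 2, with a signal value of 37.2, and 1028 in replicate 3, with 76.7. The second peak, at 14771074 to 14771477, lay 25 bp upstream of a later annotated start, with a signal value of 65.2 at rank 2857, close to the end of the IDR peaks. The second peak ranked 2224 in replicate 3 and 6904 in replicate 2, so it was inside the strongest 3033 regions of replicate 3 only. The 2 summits were 838 bp apart, and a weaker region of signal value 36.5 lay between them and overlapped the second peak by 118 bp. Replicate 2 had the reverse order there, with its region between the summits at rank 3486, above its region at the second peak. BEAF-32 and Chro have 3 annotated starts each and Cp190 has 2, which widens the stretch searched. Dref, pzg, CTCF, su(Hw), mod(mdg4), Ibf1 and Ibf2 have 1 each. Among all protein coding genes, 245 (1.75%) had 2 or more IDR summits within 500 bp of a start, out of 2444 with any.

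Cp190, which encodes the centrosomal and chromatin protein recruited by several insulator proteins, was the other gene with 2 IDR promoter peaks. The stronger (3R, 15275171 to 15275408) had a signal value of 182.1 at rank 467. Its summit was 66 bp upstream of the nearer of 2 annotated starts. The second (15275310 to 15275713) had a signal value of 103.8 at rank 1357, with its summit 271 bp upstream. These peaks overlapped by 99 bp and their summits were 205 bp apart, one toward Cp190 and one toward CG4338. Replicate 3 also listed 2 regions there, ranked 376 (signal value 126.8) and 1415 (signal value 64.3). Replicate 2 listed 1 strong region in their place, ranked 591 (signal value 61.9), with its summit 243 bp upstream of Cp190. The location of the stronger summit within this intergenic stretch thus differed by 193 bp between the replicates.

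All 5 IDR promoter peaks that were strongest at their gene lay within 500 bp of another gene's start as well, and in all 5 that start was on the opposite strand. The partners were Ssl1 at Chro, RpL13 at Dref, CG12974 at pzg, CG4338 at Cp190 and the antisense RNA gene asRNA:CR42254 at BEAF-32. The paired starts were 84 to 281 bp apart. Over all 2444 protein coding genes with an IDR promoter summit, 62.8% had their strongest one within 500 bp of another gene's start, and 59.9% within 500 bp of one on the opposite strand. Which of the paired genes a shared peak belongs to cannot be told apart from summit positions. The median distance from summit to start was 66 bp for the 5 genes and 123 bp for all genes with an IDR promoter summit. Distances were taken to the nearest start of a gene, so further annotated starts, as at Chro, BEAF-32 and Cp190, can only shorten them.

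**Figure D3:**
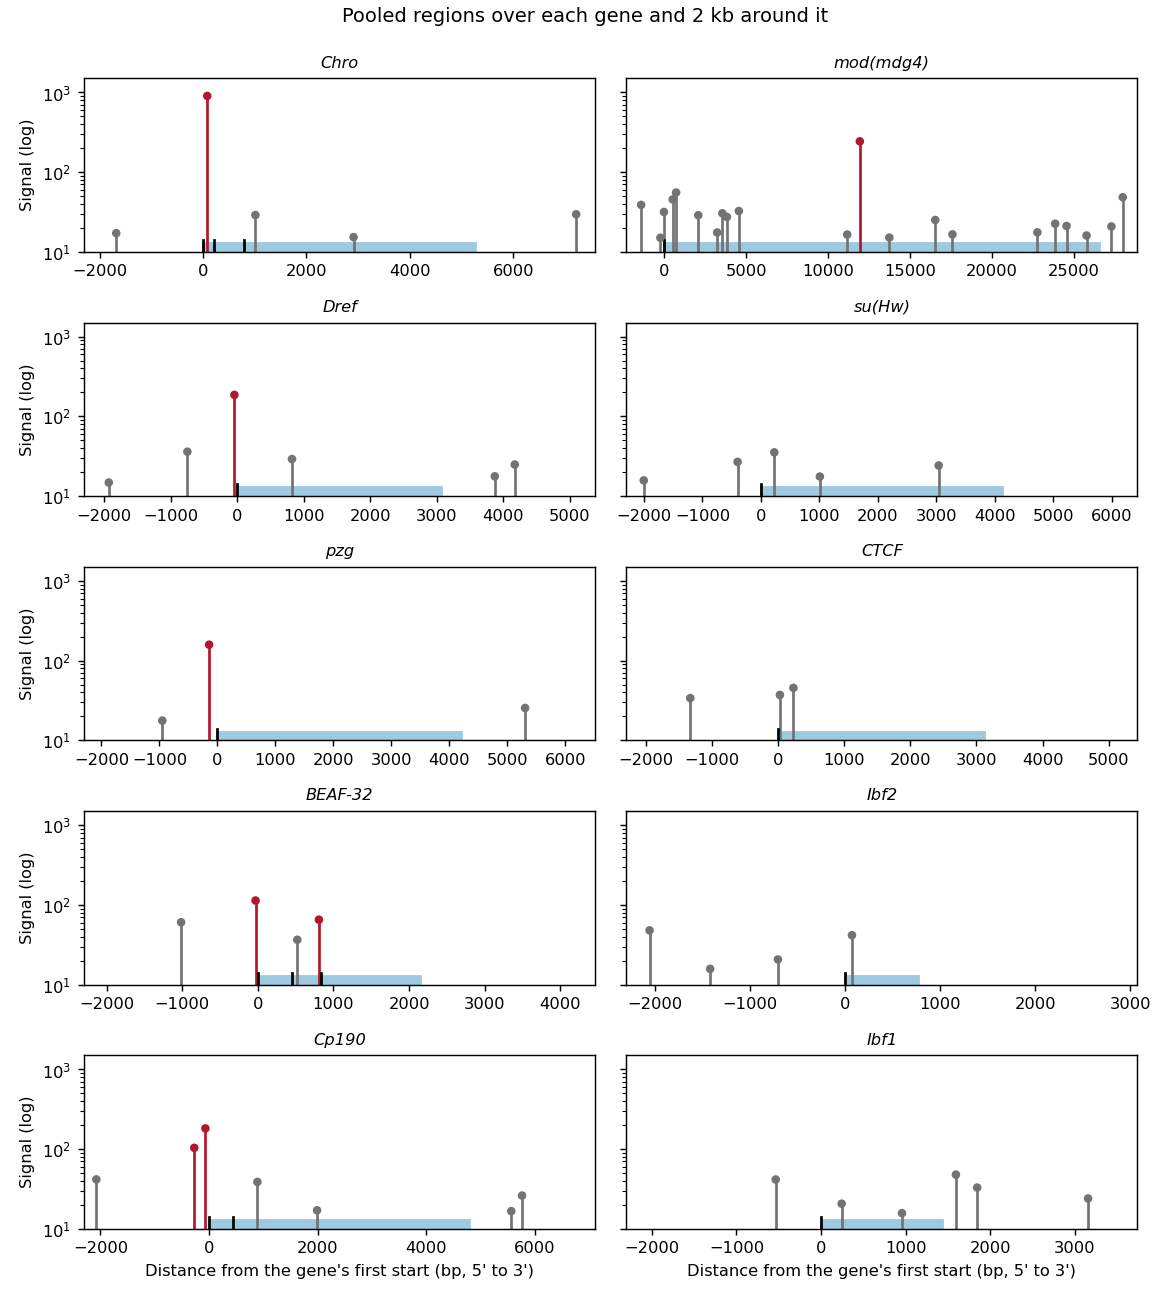
Regions of the pooled list around the 10 genes, with the signal value of each (vertical axis, log scale) at the distance of its summit from the gene's first start in bp, read in the direction of transcription. Red markers are IDR peaks, grey markers other pooled regions, the blue bar is the gene body and black ticks are annotated starts. Red markers stand at the starts of Chro, Dref, pzg, BEAF-32 and Cp190, and inside the body of mod(mdg4).

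The other genes of the gypsy insulator complex, to which Cp190 also belongs, had no IDR promoter summit. su(Hw) encodes the zinc finger protein that binds the gypsy retrotransposon's insulator, and mod(mdg4) encodes a BTB domain protein recruited to it. The strongest promoter region of su(Hw) (3R, 14308158 to 14308561) had a signal value of 35.3 at rank 6908 of the pooled list. It lay 229 bp downstream of the start, in the 5′ UTR. Replicate 3 placed its strongest summit there, 222 bp downstream, at rank 4221 (signal value 32.4). Replicate 2 placed its strongest summit 249 bp upstream, at rank 5633 (signal value 16.5), and listed 1 region in all over the gene and its flanks. The strongest summits of the replicates were thus 471 bp apart. Replicate 3 also listed a weaker region upstream, with its summit at −384 bp and rank 12000, which overlapped the region of replicate 2, and the pooled list had one there with a signal value of 26.8 and its summit 399 bp upstream.

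At the mod(mdg4) start the region was weaker still, at rank 8158 of the pooled list with a signal value of 31.6 (3R, 21377207 to 21377610). It ranked 13450 in replicate 2 and 13816 in replicate 3, with signal values of 10.8 and 15.7. Both replicates held their summit within 13 bp of the start, and the summits lay 7 bp apart. This was the least ranked of the 10 promoters in replicate 3, and only Ibf1 ranked lower in replicate 2.

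The strong peak of mod(mdg4) lay inside the gene. An IDR peak at 3R 21365379 to 21365561 had a signal value of 243.4 at rank 240, 7.71 times that of the region at the start. Its summit was 11933 bp downstream of the mod(mdg4) start, in an intron. Replicate 3 ranked it 211 with a signal value of 164.6. Replicate 2 listed 2 overlapping regions there, ranked 275 (signal value 85.6) and 575 (signal value 62.6). mod(mdg4) is known for trans-splicing, in which a common 5′ part is joined to alternative 3′ exons transcribed separately, on both strands. The annotation lists 23 such precursor genes, named pre-mod(mdg4), with 7 distinct starts. The internal summit was within 500 bp of the starts of 10 of them. Of these, 7 run on the plus strand from 1 shared start 141 bp from the summit. The other 3 run on the minus strand, pre-mod(mdg4)-E from a start 20 bp upstream of the summit and pre-mod(mdg4)-AB and pre-mod(mdg4)-C from a start 178 bp downstream of it. Across the whole gene and its 2 kb flanks the pooled list had 21 regions, replicate 2 had 20 and replicate 3 had 21. The next strongest was 730 bp downstream of the mod(mdg4) start, with a signal value of 55.4 at rank 3578, outside the IDR peaks. Replicate 3 ranked that region 2747, and the 2 regions of replicate 2 that overlapped it ranked 6576 and 8448.

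**Figure D4:**
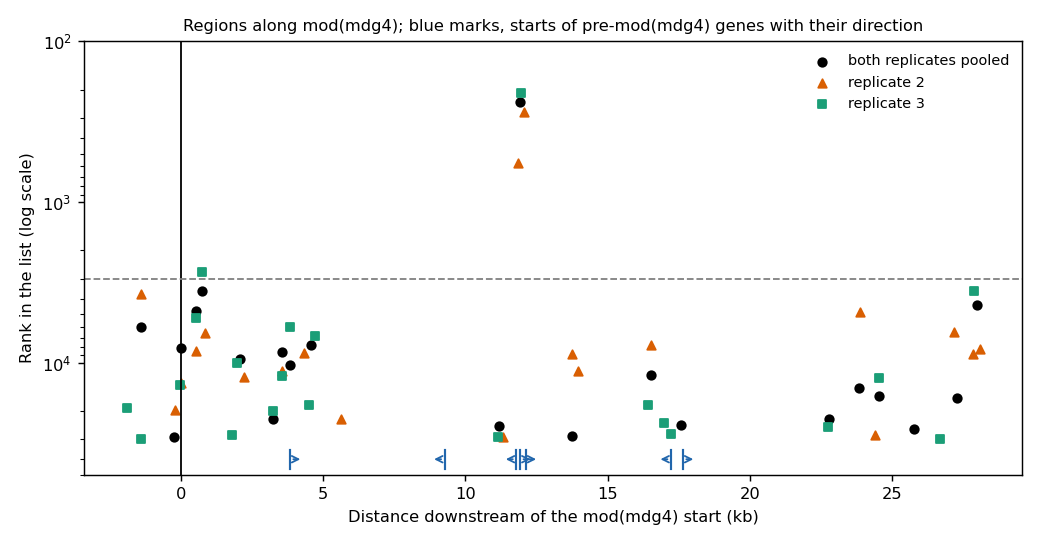
Rank of each region over mod(mdg4) and its flanks in the pooled list and in replicates 2 and 3 (vertical axis, log scale, strongest on top) against distance from the mod(mdg4) start (vertical line) in kb, with blue arrows at the starts of the pre-mod(mdg4) genes. The internal peak at rank 240 stands above the dashed line at rank 3033 in all 3 lists, and otherwise only the region of replicate 3 at rank 2747 does.

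CTCF, the gene of the zinc finger insulator protein shared with vertebrates, fell between these cases. Its strongest promoter region (3L, 7356283 to 7356686) had a signal value of 45.4 at rank 4760 in the pooled list, 228 bp downstream of the start, in an intron. The summit of that region also lay in an exon of another gene, and 484 bp from the start of the antisense RNA gene asRNA:CR45822. A second region with a signal value of 37.1 lay 24 bp downstream of the start and overlapped the first by 200 bp. Replicate 3 placed its strongest summit 223 bp downstream, at rank 4201 with a signal value of 32.5. Replicate 2 placed its strongest summit 105 bp downstream, between the 2 pooled summits, at rank 2630 with a signal value of 26.6. The replicate summits were 118 bp apart, and only replicate 2 had a CTCF promoter region among its strongest 3033.

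Ibf1 and Ibf2 encode insulator binding factors that act as a pair, and their genes are neighbours whose starts lie 463 bp apart on 3R. Their regions are not independent, since all 4 pooled regions of Ibf2 also lie over Ibf1 or its flanks. The Ibf2 promoter region (9258226 to 9258629) had a signal value of 41.6 at rank 5439. Its rank was 4918 in replicate 2 (signal value 17.8) and 6067 in replicate 3 (signal value 25.7), with the summit 73 bp downstream of the start, in coding sequence. The Ibf1 promoter region (9259005 to 9259408) had a signal value of 20.7 at rank 16771, the lowest of the set. It ranked 18074 in replicate 2 and 9559 in replicate 3, with signal values of 9.45 and 19.5. The strongest region near the pair belonged to neither promoter. It lay near the start of ATP6AP2, with a signal value of 47.9 at rank 4446, and ranked 4703 in replicate 3. The region that overlapped it in replicate 2 ranked 2278, but its summit (9260828) lay nearer to that of the next pooled region (9260808, rank 7622) than to this one (9260557).

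Over gene bodies and 2 kb on either side, 6 of the 10 genes had an IDR peak, the sixth being mod(mdg4), beside 30.6% of protein coding genes. All 10 had some pooled region there, beside 81.9%. The 10 genes held 8 IDR peaks, of which 7 had a summit within 500 bp of a start of one of the 10 genes. They held 60 distinct pooled regions, with a median of 5 per gene against 3 over all protein coding genes. These counts were not adjusted for gene length, and 21 of the regions lay at mod(mdg4), which spans 26556 bp. Regions shared by Ibf1 and Ibf2 count for both genes in the median. The 52 regions that were not IDR peaks had signal values of 14.8 to 60.5, with a median of 25.8. The 1 IDR peak away from a start of the 10 genes was the internal mod(mdg4) peak.

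A further list of 22 genes of insulator and architectural proteins served as a comparison within the same functional class. Of these, 10 (45.5%) had an IDR promoter summit, beside the 17.5% of all protein coding genes given above. The highest signal value among them was 256.5 at Trl, which encodes GAGA factor, at rank 213 (151 in replicate 2 and 274 in replicate 3). fs(1)h, a BET family gene, had 130.8, and Cap-H2, a condensin subunit gene, 113.4. JIL-1, a histone kinase gene, had 101.1, SA1, a cohesin subunit gene, 94.7, and M1BP, a promoter-binding zinc finger gene, 91.6. These 6 all ranked within the strongest 3033 regions of both replicates. The other 4 were pita, l(3)mbt, e(y)2 and Top2. IDR peaks over the gene body or flanks added Cap-D3 and Clamp. No pooled promoter region was listed at Elba1 and Elba3. The median rank over the 20 genes with a promoter region was 3031, beside 2960.5 for the 10 genes. Each median is a midpoint in a gap that holds no gene of its list. The gap ran from Top2 (2567) to SMC1 (3495) here, and from BEAF-32 (1161) to CTCF (4760) in the 10 genes. The nearness of the medians therefore does not show that the lists are alike.

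Sequence words were then looked for within 50 bp of each summit, on both strands. Some are known to be recognised by these same proteins, and others (motif 7, CAACACTG and the E-box) were searched as further words. The full DREF element TATCGATA was present at 1 of the 10 strongest promoter regions, that of mod(mdg4), 39 bp from the summit. It was present at 3.00% of IDR peaks, at 0.931% of the 26329 pooled regions that overlap no IDR peak, and at 4.68% of the strongest promoter regions of the 7784 genes. Farther from the summit, the Cp190 and Ibf2 regions held it at 62 and 73 bp, in both cases at the gene's own start. Whole regions therefore held the full word at 3 of the 10 genes, beside 7.78% of IDR peaks, 2.54% of the other pooled regions and 12.04% of the 7784 genes. Of these 3 regions, only that of Cp190 was an IDR peak.

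The core CGATA lay within 50 bp of the summit at 7 of the 10 genes, beside 21.4% of IDR peaks, 12.8% of the other pooled regions and 25.3% of the 7784 genes. It was found 6 bp from the summit at Chro, 23 bp at Dref, 28 bp at Ibf1, 31 bp at pzg, 39 bp at su(Hw) and mod(mdg4), and 43 bp at CTCF. BEAF-32, Cp190 and Ibf2 had none in that window at the strongest region, though a core at Cp190 lay 51 bp from the summit, just outside it. Within the window the core was present at 3 of the 5 genes with an IDR promoter summit and at 4 of the 5 without. Whole regions held it at 9 of the 10 genes, beside 47.7% of IDR peaks, 39.7% of the other pooled regions and 55.5% of the 7784 genes.

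The other words were searched in the same way. Within 50 bp of the 10 strongest summits there was no match to GGTCACACT (the M1BP word), CAGCNCTA or CATCNCTA (motif 7), CAGCTG (an E-box), GAGAG (the GAGA word), AGGNGGCGC (a CTCF core), CAACACTG or GCATACTT (a su(Hw) core). At the second BEAF-32 peak CAACACTG was present in 2 copies, 10 and 31 bp from the summit. In this window the word was present at 3.86% of IDR peaks, 0.539% of the other pooled regions and 3.02% of the 7784 genes. The Ibf2 region held it just beyond the window, starting 44 bp from the summit, and whole regions held it at 6.56% of IDR peaks, 1.71% of the others and 5.85% of the genes. In the same window GGTCACACT was at 1.29% of IDR peaks and 0.619% of the others, motif 7 at 4.58% and 1.93%, and CAGCTG at 5.67% and 5.66%. GAGAG was at 10.1% and 12.9%, the CTCF core at 0.824% and 0.517%, and the su(Hw) core at 0.626% and 0.486%. The whole CTCF region held no CTCF core. The whole su(Hw) region held 1 su(Hw) core 83 bp from the summit, a word found in 1.65% of whole IDR peaks and 1.91% of the other whole regions. A match is a string of letters in a window, and whether any of these words is bound was not tested.

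Base composition around the summits differed among the genes. The 101 bases centred on the summit had a median GC content of 41.6% at the 5 genes with an IDR promoter summit and 43.6% at the other 5, beside 36.6% over all IDR peaks and 45.5% over the other pooled regions. The range was 29.7% to 49.5% for the first 5, with Cp190 lowest and Chro at 32.7%, and 39.6% to 50.5% for the other 5. The internal mod(mdg4) peak had 33.7%.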

How the data were processed

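Peak lists in narrowPeak format on dm6 were used. Each replicate's list derives from that replicate's alignment, per the file manifests, and the pooled list from the 2 alignments combined, in each case with a further input that is not described. The deposited columns used are the authors' signal value and summit offset in bp. The authors also gave the −log10 of q-values, which did not enter any ranking. The aligner, the peak caller and the threshold of the IDR step are not given in the sources used here. Lists on dm3 and a control library were not used here.

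Genes of Ensembl release 115 (BDGP 6.54) were used, transposable elements left out, and SA was matched as SA1. No region ran beyond an arm end of NCBI Release 6. Promoter summits lay within 500 bp of a start, overlap meant at least 1 bp, and words were searched 50 bp either side of summits. The 10 genes, the further list and the words were chosen with earlier results of these data known. Named were all 10 genes, the 6 strongest of the further list and the rank neighbours of Chro. Genes starting within 500 bp of the strongest promoter summit of a gene were also named. At the internal mod(mdg4) peak only the precursor genes on the minus strand were named. Other genes (ATP6AP2, the rest of the further list) were named after their values were seen. Alternatives were other distances, flanks, overlaps, windows, annotation, peak subsets and each replicate alone. On simulated regions a direct search gave the same promoter call and the same gene body call at 1000 of 1000 genes. These included genes with no region to find. The full DREF word, the only word planted, was found in 500 of 500 strings. Such checks cover the coding of the rules, not the rules themselves. Work was done in Python 3.11.15, with pandas 2.3.3, numpy 2.4.6, matplotlib 3.10.9 and scipy 1.17.1.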

Additional observations from a re-analysis of the deposited data

How the results depend on the processing

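The count of genes with an IDR promoter summit was 5 in 7 of 8 alternatives and 6 from replicate 2 alone, which added CTCF, so it spanned 5 to 6 over the single replicates. IDR peaks over gene bodies or flanks gave 6 in 6 of 7 alternatives and 8 from replicate 2 alone, which added CTCF and Ibf1. The further list had 10 genes, and 4 with the stronger part of the IDR peaks alone, which holds fewer peaks. Over the other alternatives it had 7 to 11. The full DREF word was at 1 gene within 50 bp, at 3 within 100 bp, at 3 in whole regions and at 7 as the core alone. Longer windows and shorter words match more by construction. The median rank of 2960.5 became 2089.5 to 2614.5 over the single replicates. In each of these lists it is the midpoint of the ranks of BEAF-32 and CTCF, so it moves with those genes alone. Why their ranks differed was not tested. The median was 2369.5 at 1000 bp, where a farther region can only rank higher. No paired analysis was possible because the series holds 1 group. Depth is unknown and 2 replicates are few. The second BEAF-32 peak and the CTCF promoter region each ranked within the number of IDR peaks in 1 replicate only. Those 2 calls are therefore not firm. Regions farther below that rank were not all firmer. Pooled promoter regions had authors' −log10 q-values of 3.50 at CTCF, 2.57 at Ibf2, 1.62 at su(Hw), 1.17 at mod(mdg4) and 0.275 at Ibf1. The Ibf1 region ranked 18074 in replicate 2 and 9559 in replicate 3. Replicate summits lay 471 bp apart at su(Hw), but 16 bp at Ibf2 and 7 bp at mod(mdg4).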
